A study of Rattus norvegicus with 8 samples.

Results

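The mitochondrial solute carriers of the SLC25 family were described in thigh skeletal muscle of Wistar Han rats, as all probes of an Illumina rat expression bead array whose annotated gene symbol starts with Slc25a. These were 35 probes for 33 of 13337 named genes, among 22523 probes in all, of which 13793 carried a gene symbol. One group of 4 rats ate a diet with 150 ppm of compound 177, which the design text calls a sulfonyl isoxazoline, over 28 days. The control group of 4 rats ate ordinary chow. Each rat gave 1 array, and the labels give no sex, age or genotype beyond the strain. The series title names mitochondrial toxicity of such compounds in muscle as its subject, and the comparison asks which transcripts differed in muscle after feeding. Levels are background-corrected, quantile-normalized log2 intensities. Differences are compound 177 minus control on that scale, so that 1 unit is a doubling.

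SLC25 carriers are nuclear-encoded proteins of the inner mitochondrial membrane, with a few exceptions in peroxisomes and the outer membrane. They exchange nucleotides, phosphate, carboxylates, amino acids, acylcarnitines and cofactors between cytosol and matrix. In skeletal muscle the ADP/ATP carrier and the phosphate carrier feed ATP synthase, the oxoglutarate carrier serves the malate-aspartate shuttle that brings in reducing equivalents, and the acylcarnitine carrier brings fatty acids to oxidation.

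No member changed by the test used. With limma and Benjamini-Hochberg adjustment over 10212 tested probes, 0 Slc25a probes passed an adjusted p of 0.05, and 0% of all tested probes did. At an unadjusted p below 0.05 there were 2 members, both higher (Slc25a16 and Slc25a20), where 3.88% of all tested probes met this, 2.26% higher and 1.62% lower. The largest differences among the 27 tested members were 0.43 for Slc25a16 (higher, 1.35-fold), 0.39 for Slc25a20 (higher, 1.31-fold) and -0.37 for Slc25a1. The energy carriers Slc25a3, Slc25a4 and Slc25a5 differed by 0.05, -0.02 and 0.04. The 95% confidence interval of a member's difference had a median half-width of 0.37. In bulk tissue, fewer cells of a type and less RNA per cell cannot be told apart.

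Testing required detection (p below 0.05) on 4 or more of the 8 arrays, and 27 Slc25a probes for 25 genes met this. Of all 35 probes, 23 were detected on all 8 arrays, 1 on 5, 3 on 4, 3 on 2, 1 on 1 and 4 on 0. A probe that passes through the group where it is detected may do so because of a difference, so detection is given by group where it was partial. Slc25a10, the dicarboxylate carrier, was detected on 3 compound 177 and 1 control arrays, and Slc25a14 and Slc25a40 on 2 of each. The rat reference annotation (GRCr8) holds 49 protein-coding genes named Slc25a plus a number, and 16 of them had no probe in the table, among them the aspartate/glutamate carriers Slc25a12 and Slc25a13 and the mitoferrins Slc25a28 and Slc25a37. These are not analysed here.

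The arrays were first checked against their label. All 9 tested markers of skeletal muscle fibres were detected on every array, and Acta1, skeletal muscle actin, averaged 15.57 ± 0.03 with compound 177 and 15.56 ± 0.05 in controls (SD, n = 4 each). Slc25a47, a carrier known from liver, had levels of 4.80, 5.73, 4.80 and 4.73 in compound 177 rats 1 to 4, against 4.76, 7.96, 4.90 and 4.83 in control rats 1 to 4. It was detected only on the arrays of compound 177 replicate 2 and control replicate 2. A list of 20 liver genes, assembled after this value was seen, had mean levels of 5.35, 8.02, 5.38 and 5.47 on compound 177 arrays 1 to 4, against 5.43, 10.03, 5.71 and 5.45 on control arrays 1 to 4. Of these genes 18 were detected on compound 177 array 2, 20 on control array 2, and between 6 and 15 on each other array, and Fgb, Apoa2, Cps1 and Tat were detected on 0 of the other 6. The summed liver level ran from 9.74 to 12.84 with compound 177 and from 9.85 to 15.01 in controls. Albumin (Alb) had a level of 9.89 on compound 177 array 2 and 12.54 on control array 2.

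Both arrays numbered 2 thus carried more liver transcripts than the other 6, the control array more than the compound 177 array. In a list of 9 heart muscle genes, also chosen after seeing the data, Myh6, Tnni3 and Tnnt2 were highest on control arrays 2 and 1. Nppa, the atrial natriuretic peptide, had this order near background, at 5.49 and 5.3, with at most 5.28 elsewhere. Nppb was highest on control array 2, at 5.84, but had 5.49 on control array 1. The remaining genes did not share this pattern. Myh6, the alpha heavy chain of cardiac myosin, had levels of 8.12, 8.16, 7.40 and 5.41 with compound 177, against 10.16, 12.25, 6.51 and 8.04 in controls. Tnni3, cardiac troponin I, had levels of 5.64, 5.73, 5.06 and 5.23 with compound 177, against 8.22, 10.47, 5.0 and 5.32 in controls. The summed heart level ran from 8.89 to 9.75 with compound 177 and from 9.16 to 13.31 in controls. Myl7, the atrial myosin light chain, had levels of 5.74, 5.66, 5.24 and 5.18 with compound 177, against 5.29, 5.19, 5.15 and 5.33 in controls. Ryr2 was highest on compound 177 array 1, at 5.88, and Kcnj3 was lowest on control array 2, at 5.13. Actc1, cardiac actin, was detected on 0 arrays and Nppa on 1, control array 2. Estimated array weights were lowest for this pair, at 0.541 with compound 177 and 0.572 in controls, against 0.958 or more on the others. Values without both arrays numbered 2 are therefore given beside some of the family counts and for many of the members on which these arrays were extreme. The part these transcripts play in the carriers' values was not tested.

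**Figure D1:**
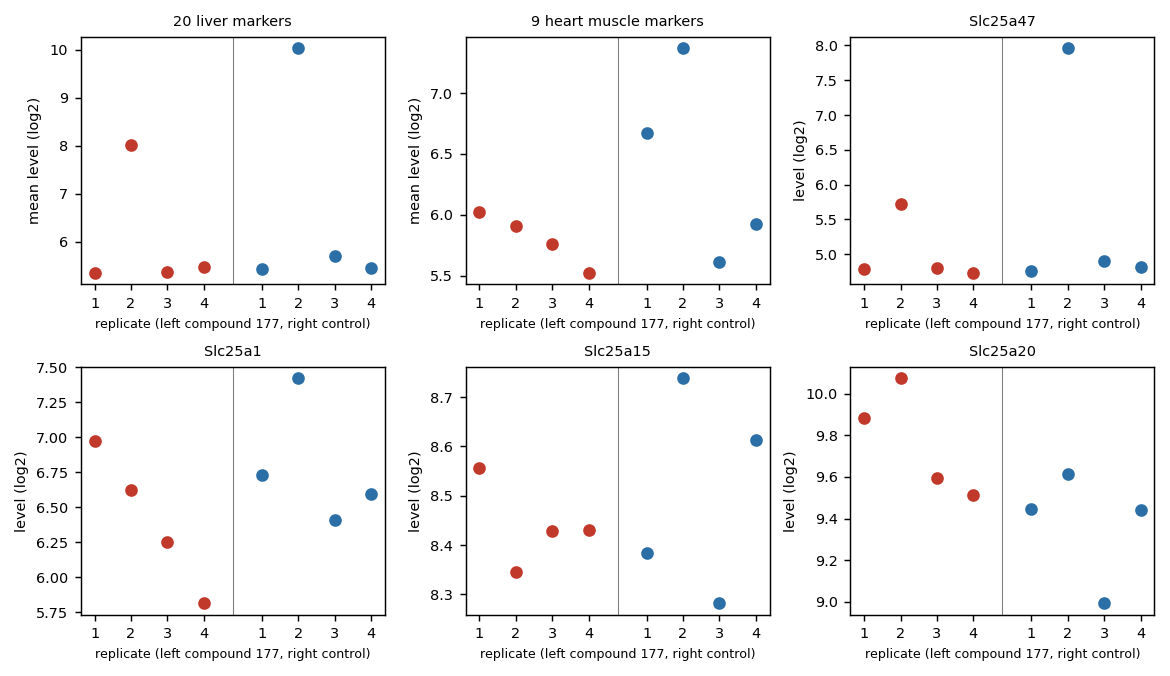
Level on each array (log2 intensity) of the mean of 20 liver markers, the mean of 9 heart muscle markers, and of Slc25a47, Slc25a1, Slc25a15 and Slc25a20; red points are compound 177 arrays, blue points control arrays, by replicate number, and axes do not start at 0. The liver markers and Slc25a47 are high on the arrays numbered 2, more so in the control (10.03 and 7.96) than with compound 177 (8.02 and 5.73).

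The arrays' median raw intensities lay between 97.5 and 124.7. The highest raw intensity was 43195 on compound 177 array 2 and 42838 on control array 2, against 50607 to 59774 on the other 6 arrays. The same arrays detected the fewest probes, 9261 on compound 177 array 2 and 9634 on control array 2, against 10058 to 10620 on the others. Raw Slc25a4 intensity was 26041 on compound 177 array 2 and 23348 on control array 2, against 39553 to 42834 on the others, before quantile normalization. Pairwise correlations between arrays ran from 0.965 to 0.991. In the authors' normalized table, replicates 1 and 2 of both groups share 1 set of sorted values and replicates 3 and 4 share another, so within-set differences are given below for set 1 (replicates 1 and 2) and set 2 (replicates 3 and 4).

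Promoter sequences are shown for the members on which the results turn, Slc25a20 and Slc25a16 with the smallest p, and Slc25a47, the liver carrier of the arrays numbered 2. They span 250 bases before to 50 after the annotated start, 5′ to 3′ on the gene's strand, from RefSeq (GRCr8): chr8:118243323-118243622 on the plus strand for Slc25a20, chr20:25714958-25715257 on the minus strand for Slc25a16 and chr6:133531491-133531790 on the plus strand for Slc25a47. Capitals mark GGGCGG, the GC box, and CCAAT, the CCAAT box, each on either strand.
Slc25a20: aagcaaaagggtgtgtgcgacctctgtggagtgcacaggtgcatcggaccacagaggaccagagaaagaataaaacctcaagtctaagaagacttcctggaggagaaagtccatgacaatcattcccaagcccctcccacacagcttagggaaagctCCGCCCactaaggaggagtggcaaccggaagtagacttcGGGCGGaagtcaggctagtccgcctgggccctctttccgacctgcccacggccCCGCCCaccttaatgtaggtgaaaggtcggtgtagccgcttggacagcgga
Slc25a16: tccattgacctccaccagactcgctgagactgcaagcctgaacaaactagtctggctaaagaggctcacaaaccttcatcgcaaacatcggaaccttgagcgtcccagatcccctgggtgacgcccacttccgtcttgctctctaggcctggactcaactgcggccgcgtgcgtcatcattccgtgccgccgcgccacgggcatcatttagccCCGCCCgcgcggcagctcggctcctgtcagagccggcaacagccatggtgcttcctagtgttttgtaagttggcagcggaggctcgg
Slc25a47: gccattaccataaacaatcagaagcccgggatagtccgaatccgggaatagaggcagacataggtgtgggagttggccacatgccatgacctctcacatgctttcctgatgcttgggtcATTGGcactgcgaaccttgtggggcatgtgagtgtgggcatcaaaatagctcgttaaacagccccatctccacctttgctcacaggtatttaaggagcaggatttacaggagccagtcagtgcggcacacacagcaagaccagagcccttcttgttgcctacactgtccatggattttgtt

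The GC box was found 3 times in the Slc25a20 promoter, 1 time in that of Slc25a16 and 0 times in that of Slc25a47, whose promoter held 1 CCAAT box. Of the 33 Slc25a genes 28 had a promoter in the table. GGGCGG or its complement was in 22 of these 28 (78.6%), against 33.1% of all 33469 promoters of the same length, and CCAAT or its complement was in 16 (57.1%), against 37.5%. The 33469 promoters were not restricted to genes detected here. GGGCGG was in 15 of the 17 promoters of members detected on all 8 arrays, and in 4 of the 8 of members detected on fewer than 4. TATAAA, the TATA box, was in 1 member promoter (3.57%), against 14.2% of all, and AAGGTCA, the half-site of estrogen-related receptors, was in 1 (3.57%), against 4.61%. These counts were taken on both strands, and overlapping matches were counted separately. The ratio of observed to expected CG dinucleotides had a median of 0.76 over the 17 members detected on all 8 arrays, 0.82 over the 3 detected on 4 to 7, 0.51 over the 8 detected on fewer than 4, and 0.39 over all promoters. These are descriptions of sequence, and a match is not a binding site.

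Among carriers of adenine nucleotides and phosphate, 4 of 7 genes with a probe were tested, 3 of them with a difference above 0 and a median of 0.04. Slc25a4, the ADP/ATP carrier of heart and muscle, had levels of 14.99, 15.16, 15.25 and 15.24 with compound 177, against 15.20, 15.04, 15.21 and 15.27 in controls. The groups overlapped, and the difference of -0.02 had a 95% confidence interval of -0.27 to 0.22. Slc25a3, which imports phosphate and copper, had levels of 14.53, 14.61, 14.64 and 14.80 with compound 177, against 14.55, 14.42, 14.68 and 14.75 in controls, with an interval of -0.22 to 0.31. The levels of both genes thus lay in nearly the same range in both groups. Slc25a5, the ADP/ATP carrier of proliferating tissues, had levels of 10.59, 10.48, 10.22 and 10.37 with compound 177, against 10.11, 10.47, 10.39 and 10.51 in controls. Set 1 gave a difference of 0.24 and set 2 one of -0.16. GRCr8 lists 9 Slc25a5 pseudogenes, and whether its probe also reads them is unknown here.

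Slc25a25, a calcium-regulated ATP-Mg/phosphate carrier, varied most within groups among tested members. It had levels of 9.0, 9.70, 8.18 and 9.72 with compound 177, against 8.33, 8.51, 9.89 and 8.74 in controls, with standard deviations of 0.73 and 0.70. Its difference of 0.28 (SE 0.41) was 0.93 within set 1 and -0.37 within set 2, and -0.02 without both arrays numbered 2. Its relatives Slc25a23, Slc25a24 and Slc25a41 were detected on 0 arrays.

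**Figure D2:**
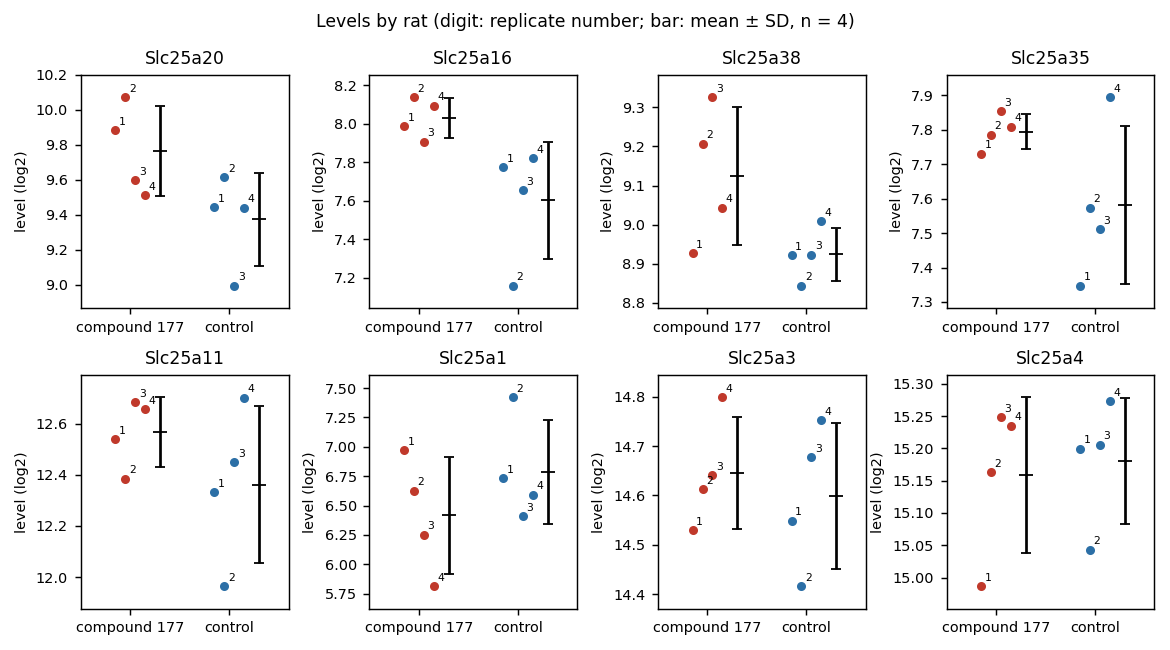
Levels (log2 intensity) of 8 Slc25a genes by rat, with compound 177 left (red) and control right (blue); digits are replicate numbers, black bars the mean ± SD of 4 rats, and axes do not start at 0. Only for Slc25a16 do the groups of these 8 genes not overlap, and the Slc25a3 and Slc25a4 groups cover nearly the same range.

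Of the carriers of di- and tricarboxylates, 5 of 6 genes were tested, 3 above 0 and 2 below, with a median of 0.19. Slc25a11, the oxoglutarate/malate carrier, had levels of 12.54, 12.38, 12.68 and 12.65 with compound 177, against 12.33, 11.96, 12.45 and 12.70 in controls. The difference was 0.20 (SE 0.16), and control replicate 2 was the lowest of the 8. Without control replicate 2 it was 0.07, and without both arrays numbered 2 it was 0.13. Slc25a35, an inner-membrane carrier without a settled substrate, had levels of 7.73, 7.79, 7.85 and 7.81 with compound 177, against 7.35, 7.57, 7.51 and 7.89 in controls. All compound 177 rats were above 3 of the 4 controls, and the difference was 0.21 (SE 0.13).

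Slc25a1, the citrate carrier that exports citrate for fatty acid synthesis, had the lowest difference of the 27 tested probes. Its levels were 6.97, 6.63, 6.25 and 5.81 with compound 177, against 6.73, 7.42, 6.41 and 6.59 in controls. The groups overlapped, and the difference of -0.37 (SE 0.28) had an interval of -1.0 to 0.26. Control replicate 2, with the highest liver signal, was also the highest for Slc25a1, but compound 177 replicate 2 lay below compound 177 replicate 1. Without both arrays numbered 2 the difference was -0.23. Slc25a10 differed by 0.19 (SE 0.20) near background, and by 0.00787 without compound 177 replicate 4, and Slc25a34 by -0.03 with 0.33 within set 1 and -0.40 within set 2. Slc25a21, the oxodicarboxylate carrier, was detected on 1 array.

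Slc25a20, the carnitine-acylcarnitine translocase, had levels of 9.88, 10.07, 9.60 and 9.51 with compound 177, against 9.44, 9.61, 8.99 and 9.44 in controls. Control replicate 2 lay above compound 177 replicates 3 and 4, so the groups overlapped. The mean was 9.77 ± 0.26 with compound 177 and 9.37 ± 0.27 in controls (SD, n = 4 each), a difference of 0.39 (SE 0.17, 95% confidence interval 0.00 to 0.78) that did not pass limma's test (adjusted p = 0.9999). It was above 0 in each of the 4 pairs of like replicate number, at 0.45 within set 1 and 0.34 within set 2, and at 0.37 without both arrays numbered 2. Each array numbered 2 was the highest of its group. Liver also expresses this gene. Around this carrier, Cpt2, which reforms acyl-CoA in the matrix, differed by 0.24 (SE 0.12) and Slc22a5, the plasma membrane carnitine transporter, by 0.27 (SE 0.14). The Cpt2 difference was 0.35 within set 1 and 0.13 within set 2. Slc22a5 differed by 0.73 in the pair of arrays numbered 2, and by 0.10 to 0.14 in the other pairs. Cpt1b, the muscle carnitine palmitoyltransferase of the outer membrane, differed by 0.14 (SE 0.14). Cpt1a, from the same list, went the other way, at -0.21 (SE 0.15).

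Of the amino acid carriers 3 of 6 genes with a probe were tested, 2 above 0 and 1 below. Slc25a38, the glycine carrier of haem synthesis, had levels of 8.93, 9.21, 9.33 and 9.04 with compound 177, against 8.92, 8.84, 8.92 and 9.01 in controls. The difference was 0.20 (SE 0.12), at 0.18 within set 1 and 0.22 within set 2. Only compound 177 replicate 1 lay within the control range. Slc25a15, the ornithine carrier of the urea cycle, had levels of 8.56, 8.34, 8.43 and 8.43 with compound 177, against 8.38, 8.74, 8.28 and 8.61 in controls. Control replicate 2 was again the highest of the 8, while compound 177 replicate 2 was the lowest of its group. The difference was -0.06 (SE 0.13) with all arrays and 0.05 without both arrays numbered 2. Slc25a29, a carrier of basic amino acids, was nearly constant with compound 177, from 8.23 to 8.30, and ran from 7.53 to 8.85 in controls, with the lower values on arrays 1 and 2. Set 1 gave a difference of 0.64 and set 2 one of -0.33. Slc25a2 was detected on 0 arrays, and Slc25a22, a glutamate carrier, on 2.

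Among carriers of nucleotides, coenzymes and vitamins 6 of 7 genes with a probe were tested, 3 above 0 and 3 below, with a median of 0.02. Slc25a16, a carrier linked to coenzyme A supply, was the one member whose groups did not overlap. It had levels of 7.99, 8.14, 7.91 and 8.09 with compound 177, against 7.77, 7.16, 7.65 and 7.82 in controls. All 4 compound 177 values exceeded all 4 control values for 1 of 27 member probes, and for 1.7% of all tested probes, so a single such member is near the background. The difference of 0.43 (SE 0.16, 95% confidence interval 0.08 to 0.78) did not pass limma's test (adjusted p = 0.9999). Control replicate 2 was the lowest of the 8, and without both arrays numbered 2 it was 0.25, within set 1 it was 0.60 and within set 2 it was 0.26.

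Slc25a32, a folate and FAD carrier, had levels of 7.74, 7.17, 8.0 and 7.68 with compound 177, against 7.84, 7.32, 7.93 and 7.89 in controls. Both arrays numbered 2 were low, and the difference was -0.10 (SE 0.20) with all arrays and -0.08 without these. Slc25a51, the NAD carrier, had levels of 8.32, 8.40, 8.62 and 8.53 with compound 177, against 8.47, 7.80, 9.01 and 8.85 in controls. Its difference of -0.06 (SE 0.24) was -0.28 without both arrays numbered 2, and control replicate 2 was the lowest of the 8. Slc25a52, its close relative, had its lowest level on the same array, 6.11 against 7.03 to 7.66 on the others, and its difference was 0.15 with all arrays and -0.23 without both arrays numbered 2. Slc25a17, the peroxisomal cofactor carrier, differed by -0.01 and Slc25a26, the S-adenosylmethionine carrier, by 0.05. Without both arrays numbered 2 these differences were -0.00216 and 0.11. Slc25a42, the coenzyme A carrier, was detected on 1 compound 177 and 1 control array.

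Of the other carriers, Slc25a39, the glutathione carrier, differed by 0.16 (SE 0.13), with 8.97, 9.36, 9.04 and 9.23 with compound 177, against 9.12, 9.05, 8.80 and 9.0 in controls. GRCr8 lists 8 pseudogenes of it. Its relative Slc25a40 differed by 0.02 near background. Slc25a46, an outer membrane protein of mitochondrial dynamics, had levels of 9.88, 9.90, 9.94 and 10.00 with compound 177, against 9.90, 9.97, 10.11 and 10.03 in controls. It had the smallest within-group spread of all tested members, and its difference of -0.07 had an interval of -0.29 to 0.15.

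The uncoupling protein relatives Slc25a14 and Slc25a27 differed by -0.00126 and 0.03, the first near background. Slc25a30 was read by 3 probes, which differed by 0.21, 0.10 and 0.10 and so had the same direction, although ILMN_1530367 and ILMN_2038878 lie near background. Probe ILMN_2039797 had levels of 7.18, 7.20, 6.94 and 7.22 with compound 177, against 6.88, 6.79, 7.50 and 6.97 in controls. Probe ILMN_1530367, detected on 3 compound 177 and 2 control arrays, had levels of 5.90, 5.60, 5.24 and 5.87 with compound 177, against 5.25, 5.39, 5.75 and 5.36 in controls. In both, compound 177 replicate 3 was the lowest and control replicate 3 the highest of its group, as for Slc25a25. Probe ILMN_2038878 had levels of 5.63, 5.65, 5.91 and 5.62 with compound 177, against 5.61, 5.51, 5.66 and 5.61 in controls, so there compound 177 replicate 3 was the highest. The probes therefore did not give 1 pattern for this gene.

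**Figure D3:**
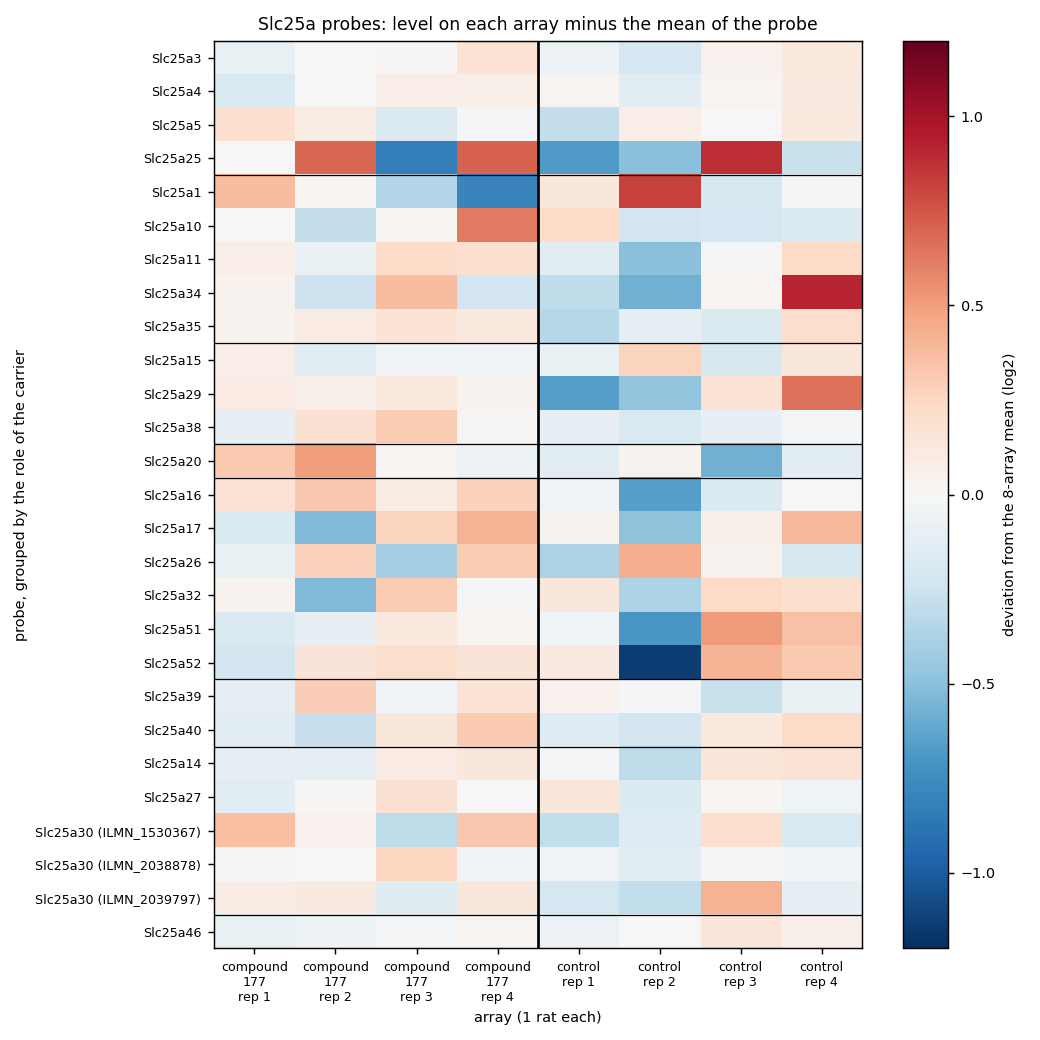
Level of each tested Slc25a probe on each array minus its mean over the 8 arrays (log2; red above, blue below), with compound 177 arrays left and control arrays right and lines between role groups. Control replicate 2 is the lowest control for 16 of 27 probes, whereas Slc25a1, Slc25a15, Slc25a20 and Slc25a26 have their highest control value there.

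Across the family, 18 of 27 probes had a difference above 0 and 9 below, and 53.4% of all tested probes had one above 0. Without both arrays numbered 2, 14 of 27 were above 0, and likewise 14 within set 2 and 18 within set 1. The median was 0.05 over the members and 0.01 over all tested probes. The count of members at an unadjusted p below 0.05 was 0 without both arrays numbered 2, where 2.73% of all tested probes met this, and 0 within set 2, where 3.72% did. Within set 1 it was 2, where 4.02% of all tested probes met this, and these were Slc25a25 and Slc25a29, not Slc25a16 and Slc25a20. All 4 compound 177 values were below all 4 control values for 0 members, and for 0.705% of all tested probes. In all 4 pairs of like replicate number 4 members were higher with compound 177 and 1 was lower, against 9.3% and 6.54% of all tested probes.

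**Figure D4:**
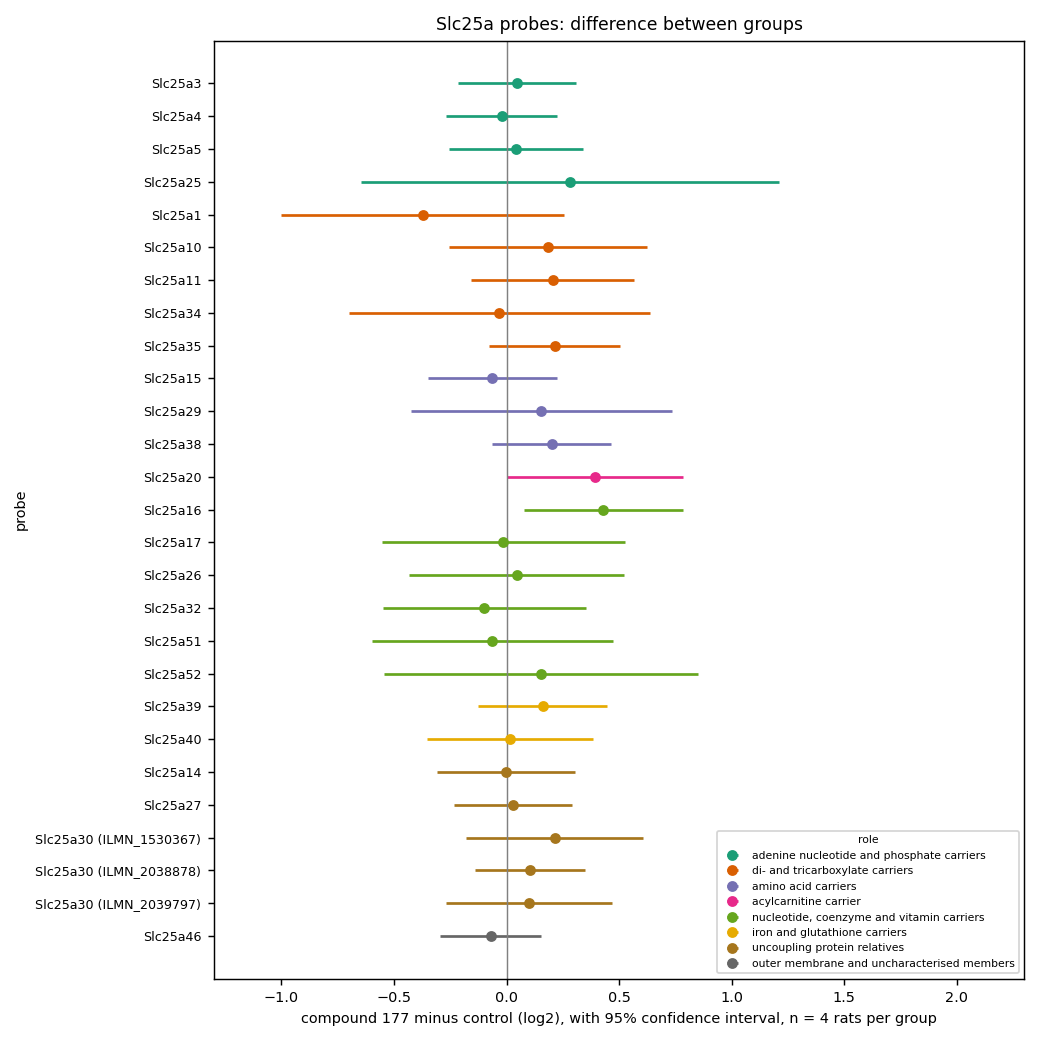
Compound 177 minus control (log2) for the 27 tested Slc25a probes with the 95% confidence interval from limma (4 rats per group), coloured by the role of the carrier. The intervals of Slc25a16 (0.08 to 0.78) and Slc25a20 (0.00 to 0.78) lie above 0 before adjustment, and those of the others include 0.

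Members varied between rats about as other probes did, with a median within-group SD of 0.24 over the members and 0.22 over all tested probes. Control replicate 2 was the lowest control for 16 of 27 members (59.3%), against 37.1% of all tested probes. The mean deviation over the members was 0.01, 0.02, 0.03 and 0.11 on compound 177 arrays 1 to 4, against -0.12, -0.22, 0.06 and 0.11 on control arrays 1 to 4. The lowest values were thus on control arrays 2 and 1, and the median difference over the members was 0.09 within set 1 and 0.00263 within set 2. For 14 of 27 members the within-set differences had opposite signs, and this held for 45.5% of all tested probes.

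**Figure D5:**
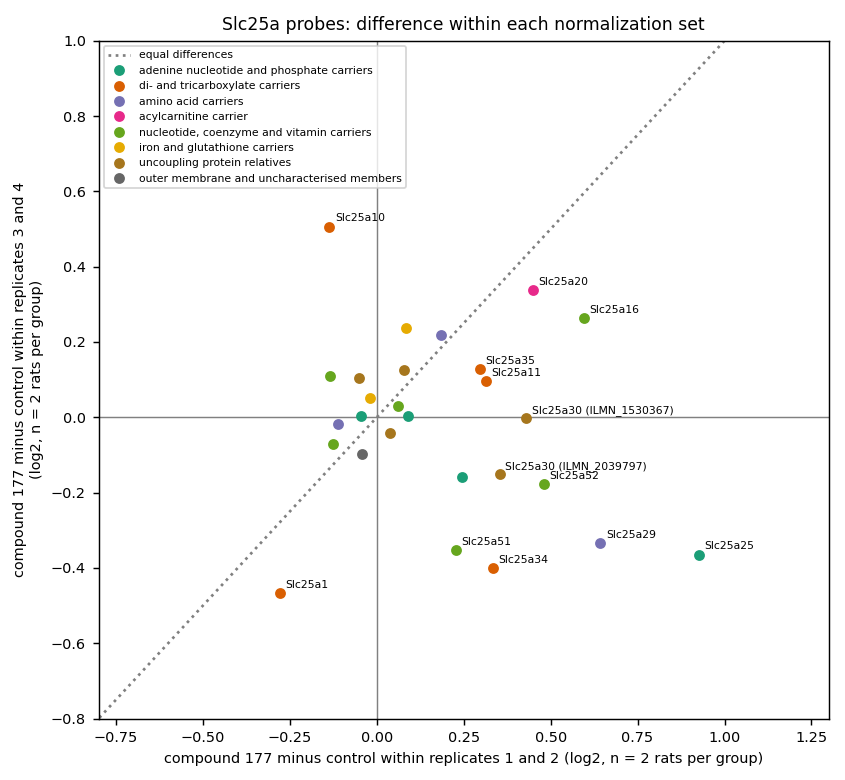
Compound 177 minus control (log2) of each tested Slc25a probe within replicates 1 and 2 (horizontal) against within replicates 3 and 4 (vertical), with 2 rats per group in each, coloured by role; the dotted line marks equal differences. Slc25a20 and Slc25a16 are above 0 in both, Slc25a1 is below 0 in both, and Slc25a25 and Slc25a29 change sign.

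Proteins that work with the carriers were described from lists. Of the family members under other symbols 4 were tested, 2 above 0 and 2 below, with 0 called. Ucp3, the muscle uncoupling protein, averaged 11.02 ± 0.36 with compound 177 and 11.07 ± 0.69 in controls (SD, n = 4 each). Ucp2 averaged 9.42 ± 1.18 with compound 177 and 9.56 ± 0.45 in controls, with -0.92 within set 1 and 0.63 within set 2. Mtch1 and Mtch2, outer membrane members, differed by 0.16 and 0.12, and Ucp1, of brown fat, was detected on 0 arrays.

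Of other mitochondrial membrane transport proteins 12 of 17 were above 0, with a median of 0.08 and 0 called. For this and the next lists, 53.4% of all tested probes were above 0. Mpc2, a subunit of the pyruvate carrier, differed by 0.40 (SE 0.17), Sfxn4, a sideroflexin, by 0.38 (SE 0.17), Sfxn1, the serine transporter, by -0.40 (SE 0.18) and Slc8b1, the sodium-calcium exchanger, by -0.23 (SE 0.17). In the pair of arrays numbered 2, Mpc2 differed by 0.85, against 0.10 to 0.33 in the other pairs. Sfxn4 differed there by 1.13, against -0.03 to 0.26 in the other pairs. The porin Vdac1, named after its value was seen, averaged 14.44 ± 0.04 with compound 177 and 14.27 ± 0.10 in controls (SD, n = 4 each). Its groups did not overlap, which held for 1 of these 17 proteins and for 1.7% of all tested probes in this direction. Of the machinery that imports carriers 10 of 12 were above 0, with a median of 0.15, among them Timm8b and Timm10, chaperones of the intermembrane space, at 0.22 each, while Timm10b differed by -0.03 and Tomm40 by -0.01. Of the shuttle enzymes 12 of 16 were above 0, with a median of 0.07, and Mdh1, the cytosolic malate dehydrogenase, and Cpt2 had the smallest p, at 0.25 and 0.24. Cpt1a differed by -0.21 and Acly by -0.16. In each of these lists 0 members passed limma's test, and at an unadjusted p below 0.05 there was 1 of 17 transport proteins (Mpc2) and 0 in the other lists, where 3.88% of all tested probes met this.

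Marker lists of fibre types and other cells were set beside the carriers. Slow fibre markers were below 0 in 10 of 10 genes, with a median of -1.08, at -0.23 within set 1 and -2.04 within set 2. Set 1 joins pairs of mostly opposite direction. The mean deviation over the slow fibre list was 0.86 on compound 177 array 1 and -0.78 on control array 1. It was below 0 on compound 177 arrays 2 to 4 and above 0 on control arrays 2 to 4. In the pair numbered 1, each slow fibre gene but Csrp3 (-0.50) was higher with compound 177. Medians were -0.62 for fibroblast markers (8 of 8 below 0), -0.58 for macrophage markers (5 of 5) and -0.36 for nerve and Schwann cell markers (5 of 5). They were -0.28 for erythroid markers (2 of 3), -0.25 for adipocyte markers (3 of 5) and -0.11 for endothelial markers (3 of 4). Fibre markers in general had a median of -0.08. Brown adipocyte markers had one of 0.12, but Ucp1 was detected on 0 arrays and Cidea and Dio2 on 6 each. None of these list members passed limma's test. Their part in the carriers' values was not tested.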

How the data were processed

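Total RNA from thigh muscle of 8 rats, 4 per group by the series' design text, was labelled and hybridized to 1 bead array each, per the labels' protocols. The authors deposited a table of raw probe intensity with a detection p-value per probe and array, and a normalized table whose method is not given in the sources used here. Intensities were background-corrected from the detection p-values and quantile-normalized with neqc (limma 3.58.1, R 4.3.3, offset 16), which gave log2 levels. The authors' normalized values, put on a log2 scale here after adding 16, served as an alternative. Probes with a detection p below 0.05 on at least 4 arrays were tested with lmFit and eBayes, with Benjamini-Hochberg adjustment over all 10212 of them. Symbols came from the platform annotation, and all 35 Slc25a probes matched GRCr8 by gene identifier. Probe sequences were not used here.

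Deviations of arrays with the same replicate number correlated at 0.237, 0.471, 0.122 and 0.425, so the numbers were taken to pair arrays, although no label says why; the fit without a replicate block was kept as planned. The number of arrays limits the precision. Text names every Slc25a gene with a probe, and genes of companion lists by size or smallest p. Members and lists were chosen with earlier results of these data known, and the liver and heart lists after their values were seen. The limma steps were tested on simulated data.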

Additional observations from a re-analysis of the deposited data

Results flagged for a closer look

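In 56 groups of 4 rats (the 27 tested Slc25a probes and Slc25a47, the last added after its values were seen, by treatment), single arrays far from the other 3 of their group were sought by Dixon's ratio of the gap to the whole range, at its 95% critical value. Chance gives this in about 1 in 20 groups. Slc25a47 was high on compound 177 replicate 2, at 5.73 against 4.73 to 4.80 on the other compound 177 arrays, and on control replicate 2, at 7.96 against 4.76 to 4.90 on the other controls. Slc25a32 was low on control replicate 2, at 7.32 against 7.84 to 7.93. Slc25a52 was low on compound 177 replicate 1, at 7.03 against 7.40 to 7.46. Slc25a10 was high on control replicate 1, at 5.62 against 5.18 to 5.24. Of the Slc25a30 probes, ILMN_2038878 was high on compound 177 replicate 3, at 5.91 against 5.62 to 5.65, and ILMN_2039797 was low there, at 6.94 against 7.18 to 7.22.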

How the results depend on the processing

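No Slc25a probe passed an adjusted p of 0.05 under any alternative run, and the smallest adjusted p was 0.745, with the replicate block. The block changed no call, and moved the count of all probes at an unadjusted p below 0.05 to 657, against 396 without it. The count of members at that level was 0 within set 2, 0 without both arrays numbered 2 (an alternative chosen after seeing the data), and 0 to 2 with single arrays left out. Of 536 member differences under alternatives 472 kept their sign and 64 did not. Median scaling moved the median of all probes to 0.0605 and that of the members to 0.12, and Slc25a14 to 0.0668, Slc25a46 to 0.00376 and Slc25a4 to 0.074. Slc25a14 was at 0.0106 with normexp, 0.0067 without background correction and 0.0082 in the authors' table. Within set 1 the differences were -0.0508 for Slc25a27, -0.0186 for Slc25a40, 0.335 for Slc25a34, 0.227 for Slc25a51, 0.0392 for Slc25a14 and -0.136 for Slc25a10. Within set 2 they were -0.151 and -0.00201 for Slc25a30 (ILMN_2039797 and ILMN_1530367), 0.109 for Slc25a17, -0.365 for Slc25a25, -0.177 for Slc25a52, -0.16 for Slc25a5, -0.334 for Slc25a29 and 0.00263 for Slc25a4. With array weights they were -0.0091 for Slc25a30 (ILMN_2039797), 0.0075 for Slc25a17, -0.0213 for Slc25a25, -0.0416 for Slc25a52 and 0.00951 for Slc25a15. Without both arrays numbered 2 they were -0.0242 for Slc25a27, -0.00109 for Slc25a30 (ILMN_2039797), -0.0206 for Slc25a25, -0.228 for Slc25a52, -0.00363 for Slc25a3 and 0.0457 for Slc25a15. With single arrays left out, differences ran from 0.00787 to 0.31 for Slc25a10, -0.0303 to 0.0783 for Slc25a27, -0.176 to 0.16 for Slc25a17, -0.0863 to 0.112 for Slc25a40, -0.23 to 0.267 for Slc25a34, -0.307 to 0.0953 for Slc25a51, -0.239 to 0.0612 for Slc25a32, -0.102 to 0.0562 for Slc25a14, -0.202 to 0.314 for Slc25a52, -0.0454 to 0.108 for Slc25a5, -0.0406 to 0.401 for Slc25a29, -0.0694 to 0.197 for Slc25a26, -0.0144 to 0.0979 for Slc25a3, -0.0674 to 0.0355 for Slc25a4 and -0.138 to 0.0139 for Slc25a15. The cause of these moves was not tested. Slc25a10, Slc25a14, Slc25a40 and the Slc25a30 probes ILMN_1530367 and ILMN_2038878 lie near background, where small changes could not be read. Slc25a26 on control array 1 and Slc25a34 on control array 2 also came close to the detection limit, each with a detection p of 0.0461.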
